A study of Mus musculus with 17 samples.

Results

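Genes of blood coagulation, of the dissolution of clots and of the matrix protein fibronectin were examined across sorted mouse myeloid cells. The 8 genes F13a1, Thbd, F10, F5, Fn1, Plau, Plaur and Thbs1 were chosen by their roles and from earlier measured values of these same arrays, in which F13a1 had been among the largest differences between progenitors with and without a VENUS reporter. That comparison therefore counts as used in the choice, and the 8 genes' values in it are given as a description with no test. Every probe set annotated to exactly 1 of the 8 symbols was taken, which gave 11 of the 45037 probe sets of the array and 7 of the 17097 genes with a probe set of a single symbol. F10 has 3 probe sets, F5 and Plau have 2 each, F13a1, Thbd, Fn1 and Plaur have 1 each, and Thbs1 has 0 and was not analysed here.

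The 17 Affymetrix arrays fall into 6 groups of pooled cells from mice aged 6 to 10 weeks. Wild-type spleen gave macrophages (3 pools, sorted for CD11b and the M-CSF receptor without CD11c) and granulocytes (3 pools, sorted for CD11b and Ly6C without CD11c or the M-CSF receptor). Bone marrow gave myelo-dendritic progenitors, or MDPs, which were positive for CD117 and the M-CSF receptor and negative for lineage markers, Sca1 and CD127. The MDPs came from wild-type mice (3 pools), from mice labelled IRF8 knockout (3 pools) and from VENUS reporter animals, as cells with VENUS expression (titled IRF8_PAC_MDP, 3 pools) or without it (titled IRF8_neg_MDP, 2 pools). Both VENUS groups have the genotype label IRF8-deficient, and the labels do not say whether this refers to the reporter allele. The labels used here do not name the strain. Each pool held cells of 5 mice, except that the number per VENUS pool is not stated. In these bulk samples fewer cells of a type and less RNA per cell cannot be told apart.

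Coagulation is a chain of proteases in which activated factor X, with activated factor V as its cofactor, cuts prothrombin to thrombin, thrombin turns fibrinogen into fibrin, and factor XIII links the fibrin strands. Thrombomodulin binds thrombin and redirects it to activate the anticoagulant protein C. Urokinase, held at the cell surface by its receptor, activates plasminogen to plasmin, which dissolves fibrin. Most circulating factors come from the liver, but monocytes and macrophages make the A subunit of factor XIII and can make factor X, fibronectin, thrombomodulin and the urokinase receptor.

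Levels are deposited log2 values, in which 1 unit is a doubling, and each is given for pools 1, 2 and 3 in that order. The lower quartile of the arrays lay between 3.18 and 3.42, and no fold is given against a level near or under it. Irf8 did not set the knockout-labelled MDPs apart, with 10.31 ± 0.12 (SD, n = 3) against 10.34 ± 0.19 (n = 3) in wild-type MDPs. In the MDPs with VENUS it was 10.88 ± 0.19 (n = 3) and in those without it 5.87 ± 0.54 (n = 2). The labels do not say whether the Irf8 probe set lies in the deleted part, so it does not check the knockout label. Wild-type MDP pool 3 stood apart from pools 1 and 2 in marker genes of mature cells. The mean of the neutrophil list was 9.32 in it and 5.20 and 4.96 in the others, with 6 of 7 genes highest in pool 3. The macrophage and monocyte list was 6.55 against 5.49 and 5.50, with 5 of 7 highest there, and all 6 erythroid and all 6 mast cell and basophil genes were highest there too. The granulocyte pools had the M-CSF receptor gene Csf1r at 7.16, 8.19 and 8.56 although the sort selected against the receptor. Their neutrophil list lay between 12.34 and 12.54. Both spleen sorts selected against CD11c, yet its gene Itgax was at 8.15, 8.57 and 8.41 in macrophages. In granulocytes it was at 6.94, 8.37 and 8.02.

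F13a1 encodes the A subunit of factor XIII, the transglutaminase that links fibrin. It was high in 4 groups and low in the other two. Its levels (probe set 1448929_PM_at) were 11, 10.76 and 10.46 in spleen macrophages, 10.41, 10.52 and 10.55 in wild-type MDPs, 10.87, 10.97 and 10.81 in knockout-labelled MDPs and 10.09, 10.65 and 10.45 in VENUS-positive MDPs. They were 4.26 and 4.63 in the pools of VENUS-negative MDPs and 4.19, 4.29 and 4.30 in spleen granulocytes. The array medians ran from 4.33 to 4.48, so the granulocyte levels lay under them and the VENUS-negative levels near them. Folds against these levels rest on low values. No pool of the 4 high groups came near a pool of the 2 low ones, and within the high and within the low groups neighbours in the order of means overlapped. Macrophages exceeded granulocytes by 6.48 (SE 0.16), an 89.2-fold difference (limma, Benjamini-Hochberg adjusted p = 8.49e-12). Granulocytes lay below wild-type MDPs by a difference of -6.23 (SE 0.16), or 75.2-fold (limma, Benjamini-Hochberg adjusted p = 8.07e-12). Macrophages and wild-type MDPs differed by 0.25 (SE 0.16), which was not called (limma, Benjamini-Hochberg adjusted p = 0.386).

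VENUS-negative MDPs had F13a1 5.95 log2 units below VENUS-positive MDPs (difference -5.95, SE 0.18), a 62.0-fold difference, and this is the value that chose the gene. Knockout-labelled MDPs had no such low level: their 3 pools lay above all 3 wild-type pools, by a difference of 0.39 (SE 0.16) that was not called (limma, Benjamini-Hochberg adjusted p = 0.53). The VENUS-negative pools also differed in markers of other cells. Their megakaryocyte and platelet list lay between 6.04 and 6.24, against 3.93 to 4.05 in VENUS-positive pools. The mast cell and basophil list lay between 7.73 and 7.79 against 4.27 to 4.46, and the erythroid list between 8.15 and 10.18 against 6.04 to 6.80. Csf1r, part of the MDP sort, was at 5.09 and 4.83 in them and at 8.05, 7.63 and 7.99 in the VENUS-positive pools. Kit, the gene of CD117 in the same sort, went the other way, at 8.20 and 8.38 against 6.62, 7.40 and 6.89. The macrophage and monocyte list lay between 4.63 and 4.68 against 5.39 to 5.63. The part of these cells in the low F13a1 level was not tested.

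**Figure D1:**
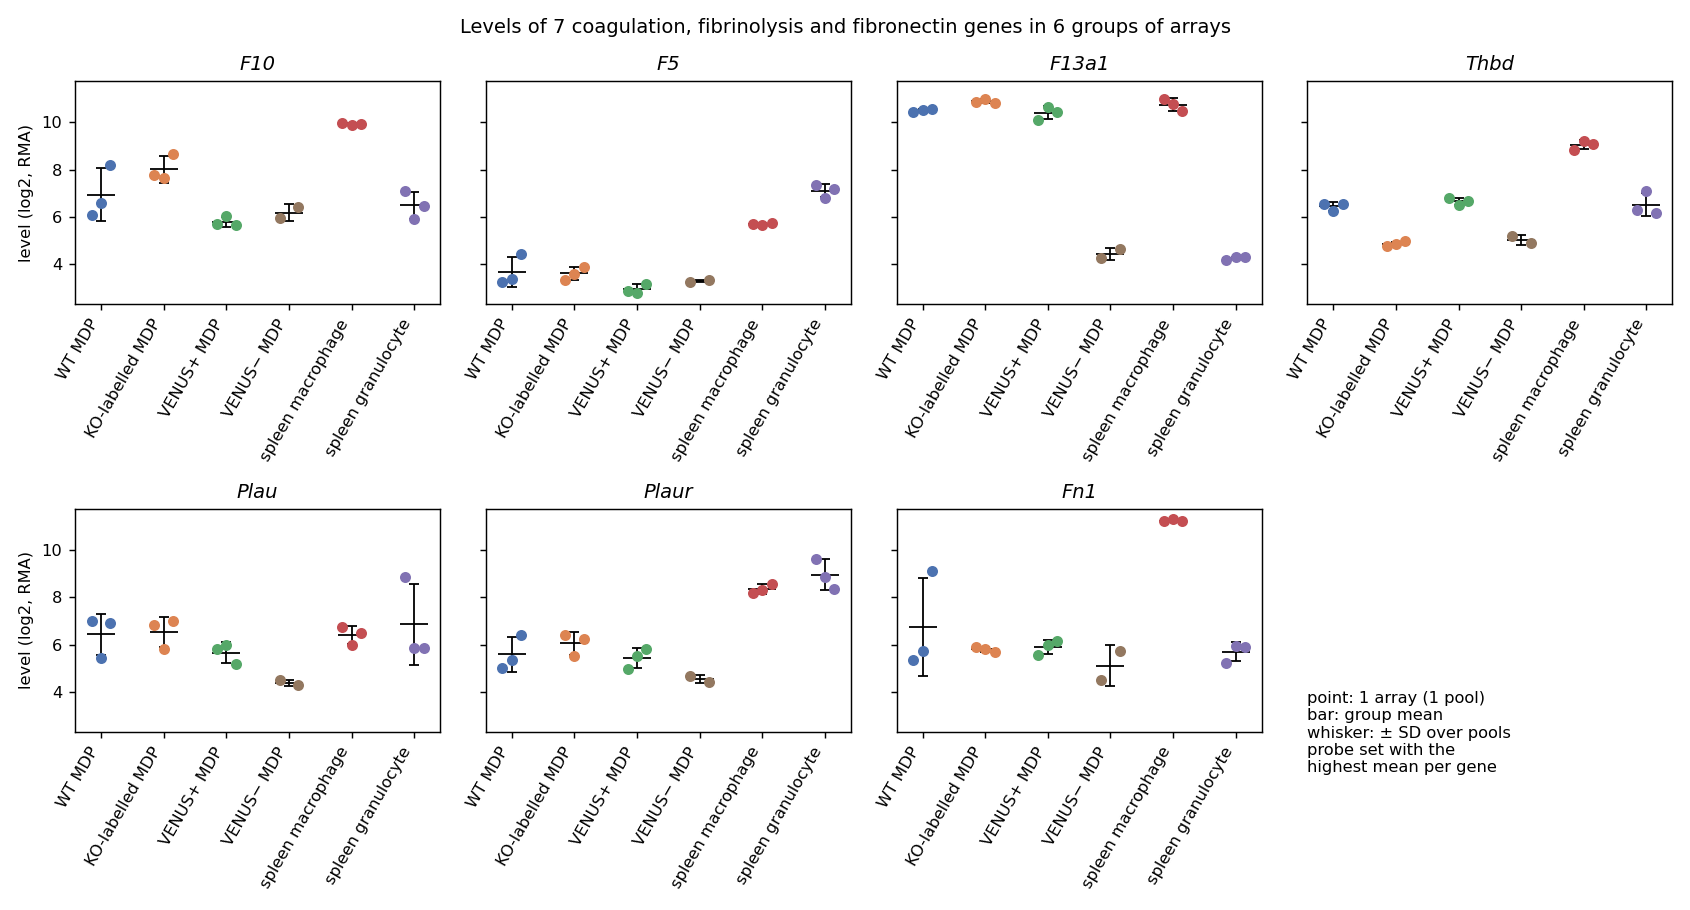
Deposited log2 level (vertical axes) of the probe set with the highest mean for each of the 7 genes in each of the 6 groups (horizontal axes), with 1 point per pool, a bar at the group mean and whiskers of ± SD. F13a1 is above 10 in macrophages and in 3 groups of MDPs and below 5 in granulocytes and VENUS-negative MDPs, and Fn1 is above 11 in macrophages, with wild-type MDP pool 3 at 9.11.

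Upstream sequence is shown where a table held it, because F13a1 had the widest contrast between groups. RefSeq windows of assembly GRCm38.p6 were matched for 4 of the 8 genes, 5 windows in all, of which the 250 bases before each start site were used. F13a1 has 2 annotated start sites, both on the minus strand, at chr13:37050245-37050494 for start 1 and chr13:37049214-37049463 for start 2. Capitals mark matches on either strand to GAGGAA, the core of a PU.1-type ETS site, to AANNGAAA, an IRF-type element, to TGANTCA of AP-1, or to TTGCNNAA of C/EBP-type factors. Written 5′ to 3′ along the gene's strand, the windows read:
F13a1 start 1: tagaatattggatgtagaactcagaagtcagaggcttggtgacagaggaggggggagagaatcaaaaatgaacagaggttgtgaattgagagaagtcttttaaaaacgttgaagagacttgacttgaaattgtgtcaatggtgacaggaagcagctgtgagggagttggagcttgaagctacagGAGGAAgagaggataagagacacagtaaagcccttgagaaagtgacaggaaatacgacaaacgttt
F13a1 start 2: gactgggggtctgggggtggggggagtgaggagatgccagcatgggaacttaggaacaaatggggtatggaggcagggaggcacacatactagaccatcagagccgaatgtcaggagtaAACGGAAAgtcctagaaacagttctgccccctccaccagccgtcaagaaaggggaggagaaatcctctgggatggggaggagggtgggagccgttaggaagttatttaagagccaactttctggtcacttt
Start 1 has 1 match to GAGGAA, beginning at base -66 from the start site, and start 2 has 1 match to the IRF-type letters, at base -131. GAGGAA is in 23.3% and the IRF-type letters in 21.3% of the 32851 mouse windows of that length, so both matches are common, and a match is a description of the letters only.

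Thbd encodes thrombomodulin, the thrombin receptor that turns on the protein C anticoagulant pathway. It was the 1 gene among the 7 that differed by the test between knockout-labelled and wild-type MDPs. Its levels (1448529_PM_at) were 6.54, 6.23 and 6.56 in wild-type MDPs and 4.78, 4.85 and 4.97 in knockout-labelled MDPs, so the pools did not overlap. The difference was -1.58 (SE 0.21), or 2.99-fold (limma, Benjamini-Hochberg adjusted p = 0.00205). It kept its call when any 1 of these pools was left out, but a fit of only these 6 arrays with the pool number as a block gave an adjusted p of 0.175 (limma, Benjamini-Hochberg). Marker lists of other cells differed between the same pools. All 3 knockout-labelled pools had a lower erythroid list (4.74 to 4.85) than the wild-type pools (6.03 to 8.94), and their neutrophil list (6.24 to 7.06) lay above wild-type pools 1 and 2 and below pool 3. The part of such cells in the Thbd difference was not tested. VENUS-positive MDPs had 6.78, 6.51 and 6.65, near the wild-type MDPs, and VENUS-negative MDPs had 5.18 and 4.89, near the knockout-labelled ones. Between the VENUS groups the pools again did not overlap, and the difference was -1.62 (SE 0.23), or 3.07-fold.

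Spleen macrophages had the highest Thbd, at 8.83, 9.20 and 9.09, and granulocytes had 6.29, 7.09 and 6.18, overlapping the wild-type and VENUS-positive MDPs. Macrophages exceeded granulocytes by 2.52 (SE 0.21), 5.73-fold (limma, Benjamini-Hochberg adjusted p = 7.00e-07), and wild-type MDPs by 2.59 (adjusted p = 7.85e-07 in the same limma fit). Thbd is a known gene of endothelium. The endothelium and stroma markers, 8 of 8 measured, averaged 3.48 to 3.62 in the macrophage pools and 3.75 to 3.91 in the granulocyte pools, both not far above the lower quartile. The dendritic cell list, 4 of 6 measured, lay between 6.08 and 6.40 in the macrophage pools. It lay between 4.59 and 5.44 in the granulocyte pools and between 4.92 and 5.30 in the wild-type MDP pools. The part of endothelial or dendritic cell RNA in the Thbd level was not tested.

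F10 encodes factor X, the protease at which the pathways into thrombin formation meet. Its brightest probe set (1449305_PM_at) had 9.97, 9.88 and 9.93 in macrophages, 7.75, 7.64 and 8.67 in knockout-labelled MDPs and 6.07, 6.57 and 8.20 in wild-type MDPs. Granulocytes had 7.09, 5.93 and 6.44, VENUS-positive MDPs 5.69, 6.03 and 5.65, and VENUS-negative MDPs 5.94 and 6.43. Macrophages stood above every other pool, while each remaining pair of neighbours in the order of means overlapped. Over the 17 arrays the other 2 probe sets followed this one at r = 0.90 and 0.89.

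All 3 F10 probe sets were called higher in macrophages than in granulocytes, by 3.44, 2.97 and 1.75 (limma, Benjamini-Hochberg adjusted p = 5.12e-05, 0.00472 and 1.66e-05, for 1449305_PM_at, 1418993_PM_s_at and 1418992_PM_at). Against wild-type MDPs the differences were 2.98, 2.68 and 2.33 (limma, Benjamini-Hochberg adjusted p = 2.18e-04, 0.0109 and 1.61e-06 in the same order). The second of these calls was lost without wild-type pool 1, at 1.93 (adjusted p = 0.0563 with limma). Knockout-labelled MDPs exceeded wild-type MDPs by 1.08 (SE 0.45), 0.71 and 0.68, none of them called (limma, Benjamini-Hochberg adjusted p = 0.518, 0.93 and 0.231). Wild-type pool 3, in which the mature-cell markers were high, had the highest level of the first 2 of those probe sets. Without it the first difference was 1.70 and was called (limma, Benjamini-Hochberg adjusted p = 0.0416), while without wild-type pool 1 it was 0.64 (adjusted p = 0.945) and the second difference turned to -0.04. For 1418992_PM_at the knockout-labelled pools (4.40, 4.78 and 5.08) lay above the wild-type pools (3.84, 4.26 and 4.13). The part of the mature-cell markers in these values was not tested. Between the VENUS groups the 3 probe sets differed by 0.39, -0.79 and 0.25 with overlapping pools, and the second turned to 0.21 without VENUS-negative pool 1.

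F5 encodes factor V, the cofactor that speeds the action of factor X on prothrombin. It was highest in granulocytes. The brighter probe set (1418907_PM_at) had 7.35, 6.80 and 7.17 there, 5.72, 5.65 and 5.74 in macrophages, 3.27, 3.36 and 4.42 in wild-type MDPs and 3.34, 3.57 and 3.90 in knockout-labelled MDPs. VENUS-positive MDPs had 2.88, 2.78 and 3.18 and VENUS-negative MDPs 3.27 and 3.32. The 3 granulocyte pools lay above the macrophage pools, and those above every MDP pool. Most MDP levels were at or close to the lower quartile of the arrays.

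Macrophages had less F5 than granulocytes with both probe sets, by differences of -1.40 (SE 0.26) and -1.95 (limma, Benjamini-Hochberg adjusted p = 9.82e-04 and 0.00427). Granulocytes exceeded wild-type MDPs by 3.42 and 3.08 (limma, Benjamini-Hochberg adjusted p = 1.35e-07 and 5.79e-05). The second probe set (1449269_PM_at) followed the first at r = 0.95 over the 17 arrays but was not called between macrophages and wild-type MDPs, with 1.13 (limma, Benjamini-Hochberg adjusted p = 0.0923) against 2.02 for the first (5.47e-05). Its wild-type pools were at 2.98, 3.59 and 5.14, and without pool 3 its difference was 1.75 and was called (limma, Benjamini-Hochberg adjusted p = 0.00208). Factor V is also stored in platelets, and the megakaryocyte and platelet list lay between 4.15 and 4.35 in granulocytes and between 3.91 and 4.02 in macrophages. Platelet RNA as a part of the F5 level was not tested.

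Fn1 encodes fibronectin, a matrix and plasma protein that integrins bind and that factor XIII can link to fibrin. Spleen macrophages stood far above all other groups. Its levels (1426642_PM_at) were 11.22, 11.31 and 11.20 in macrophages and 5.24, 5.96 and 5.89 in granulocytes. They were 5.35, 5.73 and 9.11 in wild-type MDPs, 5.89, 5.83 and 5.69 in knockout-labelled MDPs, 5.57, 5.97 and 6.17 in VENUS-positive MDPs and 4.49 and 5.74 in VENUS-negative MDPs. Apart from wild-type pool 3, no pool outside the macrophages exceeded 6.17. Macrophages exceeded granulocytes by 5.55 (SE 0.69), or 46.7-fold (limma, Benjamini-Hochberg adjusted p = 3.65e-05). They exceeded wild-type MDPs by 4.51, or 22.8-fold (limma, Benjamini-Hochberg adjusted p = 2.74e-04), and by 5.70 without wild-type pool 3 (6.57e-08).

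The single wild-type pool also set the Fn1 value in the knockout comparison. With all pools knockout-labelled MDPs were at -0.93 (SE 0.69) relative to wild-type MDPs, and without wild-type pool 3 at 0.26. Neither was called (limma, Benjamini-Hochberg adjusted p = 0.865 and 0.99). That pool had the high neutrophil, macrophage, erythroid and mast cell markers given above, and their part in its Fn1 level was not tested.

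Plaur encodes the receptor that holds urokinase at the cell surface. It was high in both mature spleen populations and lower in every group of MDPs. Its levels (1452521_PM_a_at) were 9.63, 8.86 and 8.35 in granulocytes and 8.17, 8.29 and 8.58 in macrophages. Knockout-labelled MDPs had 6.40, 5.53 and 6.24, wild-type MDPs 5.01, 5.35 and 6.42, VENUS-positive MDPs 4.98, 5.52 and 5.81 and VENUS-negative MDPs 4.68 and 4.44. The spleen groups overlapped each other and no MDP pool reached them. Granulocytes exceeded wild-type MDPs by 3.36, or 10.2-fold (limma, Benjamini-Hochberg adjusted p = 6.54e-06), and macrophages exceeded them by 2.76 (adjusted p = 1.03e-04 with limma). Macrophages and granulocytes differed by -0.60 (SE 0.38), which was not called (limma, Benjamini-Hochberg adjusted p = 0.275). The VENUS-negative pools were the lowest of all, below each VENUS-positive pool, with a difference of -0.88. The knockout-labelled and wild-type pools overlapped, at a difference of 0.46.

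The Plaur window is shown beside that of F5 because the levels of these genes correlated over the 17 arrays more closely than those of any other pair of the 7 genes (r = 0.94). Plaur is on the plus strand at chr7:24462233-24462482 and F5 on the plus strand at chr1:164151585-164151834, in the same assembly and with capitals as above:
Plaur: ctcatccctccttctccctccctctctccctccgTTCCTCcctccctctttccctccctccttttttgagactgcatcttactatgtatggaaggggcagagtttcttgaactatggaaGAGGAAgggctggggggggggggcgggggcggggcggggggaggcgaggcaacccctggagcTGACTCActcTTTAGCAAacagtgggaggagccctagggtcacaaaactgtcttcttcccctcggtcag
F5: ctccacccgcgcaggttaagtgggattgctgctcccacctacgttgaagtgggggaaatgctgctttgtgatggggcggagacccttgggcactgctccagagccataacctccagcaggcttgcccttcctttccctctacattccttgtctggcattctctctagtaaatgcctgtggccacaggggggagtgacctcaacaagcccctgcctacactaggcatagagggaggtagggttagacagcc
The Plaur window holds 2 matches to GAGGAA, at bases -216 (on the opposite strand) and -131, 1 to the AP-1 letters at -69 and 1 to the C/EBP-type letters at -59 (on the opposite strand). The AP-1 letters are in 6.75% and the C/EBP-type letters in 9.56% of the 32851 windows. The F5 window, and the F10 window not printed here, hold 0 matches to any of the 4 motifs.

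Plau encodes urokinase itself, the protease that activates plasminogen. With the brighter probe set the VENUS-negative MDPs lay below all other groups, and the other 5 groups overlapped their neighbours in the order of means. The brighter probe set (1422139_PM_at) had 8.85, 5.86 and 5.84 in granulocytes, 6.83, 5.81 and 6.99 in knockout-labelled MDPs, 6.99, 5.44 and 6.90 in wild-type MDPs and 6.73, 5.99 and 6.50 in macrophages. VENUS-positive MDPs had 5.81, 6.00 and 5.16 and VENUS-negative MDPs 4.49 and 4.30. Granulocyte pool 1 was the highest of the 17 arrays and the other 2 granulocyte pools lay within the MDP range. The second probe set (1422138_PM_at) had 6.26, 3.51 and 4.20 in granulocytes, with pool 1 highest again, and followed the first at r = 0.59 over the arrays. No Plau probe set was called in the 4 comparisons tested, and the difference between macrophages and granulocytes turned from -0.44 to 0.56 without granulocyte pool 1. In that pool 3 of 7 neutrophil genes and 1 of 7 macrophage and monocyte genes were the highest of the 3 granulocyte pools. VENUS-negative MDPs were lower than each VENUS-positive pool with both probe sets, by differences of -1.26 and -1.17.

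Among the tested comparisons, the knockout comparison had the fewest calls over the 11 probe sets, as it had over all probe sets. There 0 were called higher and 1 lower, against 0.266% and 0.309% of all 45037 probe sets, and the median difference was 0.10 against 0.01 over all. Between the VENUS groups 1 of 11 had all VENUS-negative pools above and 5 of 11 had them below the VENUS-positive pools. Over all probe sets these shares were 13.1% and 14.6%, and the median difference was -0.79 for the 11 and -0.01 over all. Since this comparison helped to choose the genes, nothing is read from that count. Without VENUS-negative pool 2, where a single pool is set against 3, 10 of 11 probe sets did not overlap. The share over all probe sets was not taken in that setting, so nothing is read from this count either.

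Between macrophages and granulocytes 6 of the 11 were called higher and 2 lower, against 13.6% and 11.3% of all probe sets, with medians of 1.75 and -0.10. Between macrophages and wild-type MDPs 7 were called higher and 0 lower, against 9.61% and 9.28%, with medians of 2.33 and 0.00. Between granulocytes and wild-type MDPs 4 were called higher and 1 lower, against 20.4% and 17.9%, with medians of 0.41 and 0.11. The smallest of these 4, F10 probe set 1418992_PM_at at 0.58 (limma, Benjamini-Hochberg adjusted p = 0.0333), lost its call under median centring (0.0652) and without granulocyte pool 1 (0.0955), granulocyte pool 3 (0.0685), wild-type pool 1 (0.129) or wild-type pool 3 (0.061). Called genes were mostly higher in macrophages, F13a1, F10, Thbd and Fn1 against granulocytes, and F10, Thbd, Fn1, F5 and Plaur against wild-type MDPs. The knockout, macrophage and granulocyte comparisons with wild-type MDPs share the wild-type MDP arrays, and each spleen group also enters the macrophage-granulocyte comparison, so their values are not independent of each other. The p-values of the 7 genes describe the fit and are no independent evidence, since the genes were chosen with earlier results known.

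**Figure D2:**
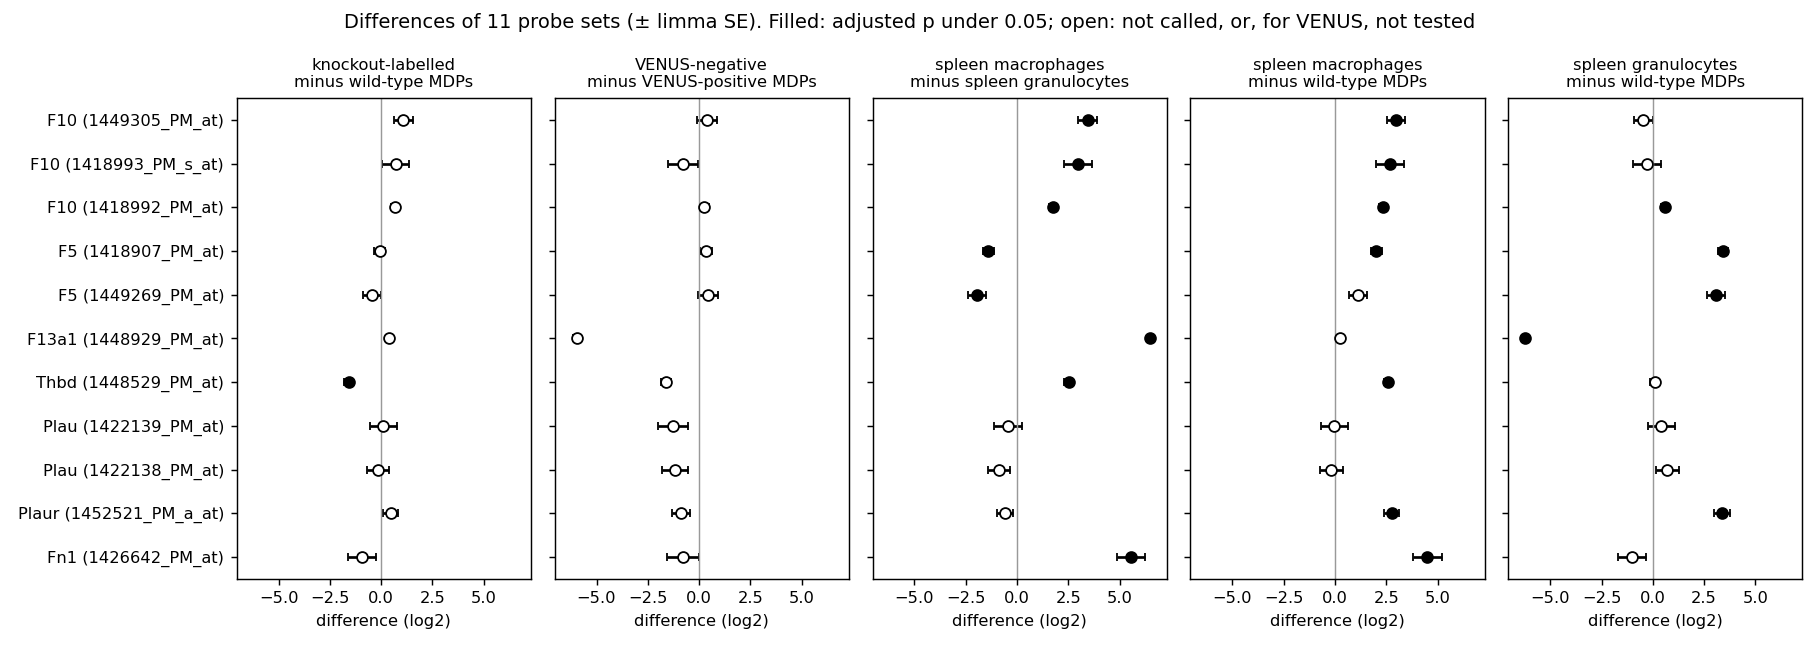
Difference between group means in log2 units (horizontal axis) with limma's standard error for each of the 11 probe sets (vertical axis), with 1 panel per comparison and filled points for calls. Thbd at -1.58 is the one call in the knockout comparison, F13a1 at -5.95 lies farthest from 0 between the VENUS groups, which has no test, and F13a1 at 6.48 and Fn1 at 5.55 lie farthest between macrophages and granulocytes.

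Other genes of the same pathways were taken from 6 lists of 57 genes, of which 52 were measured, with 1 probe set per gene. None was called between knockout-labelled and wild-type MDPs (limma, Benjamini-Hochberg), against 0.374% of genes called higher and 0.409% lower. At an unadjusted p under 0.05 in the limma fit there were 6 of 52. The share over all genes at that threshold was not taken, so nothing is read from this count. The thrombin receptor gene F2r was at -2.74 there (adjusted p = 0.0825 with limma) and was called with array weights (0.0287) or with low values left out (0.0408). So among the measured genes of both sets only Thbd was called in that comparison by the first of these fits.

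Between the VENUS groups 4 of the 52 were called higher and 1 lower in VENUS-negative MDPs, against 2.59% and 2.81% of genes. F2r, the main thrombin receptor of many cells, was higher by 5.47 (SE 0.70, limma, Benjamini-Hochberg adjusted p = 2.70e-04), with 10.08 ± 0.44 (SD, n = 2) against 4.61 ± 1.16 (n = 3). Vwf, the carrier of factor VIII and a platelet adhesion protein, was higher by 2.32 (limma, Benjamini-Hochberg adjusted p = 0.00137). F2rl2, another receptor of the same family, was higher by 1.87 (limma, Benjamini-Hochberg adjusted p = 0.0111), a call lost without VENUS-negative pool 1 (0.0997). Anxa2, a cell surface protein that binds plasminogen and its activator, fell by 1.70 (limma, Benjamini-Hochberg adjusted p = 0.00183). The fifth call was Itga4, an integrin chain that binds fibronectin, at 0.89 (limma, Benjamini-Hochberg adjusted p = 0.0099), named after its value was seen. Vwf (limma adjusted p = 0.0878) and Anxa2 (0.0701) lost their calls when only the 2 VENUS groups were fitted. Once that fit also allowed for pool number, 0 pathway genes were called. The limma adjusted p was then 0.18 for F2r, 0.187 for Vwf, 0.178 for F2rl2 and 0.2 for Anxa2. Vwf is also a gene of platelets and megakaryocytes, whose markers were higher in the same pools. The part of such cells in these 5 differences was not tested. By list, 2 of 3 thrombin receptors and 1 of 13 procoagulant factors were called higher, 1 of 9 plasmin system genes lower, and 0 of 10 anticoagulants either way. Among the anticoagulants, Proc (2.98 and 2.82), Serpina5 (2.45 and 2.36) and Tfpi2 (2.21 and 2.35) lay under the lower quartile in VENUS-negative and VENUS-positive MDPs.

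Between macrophages and granulocytes 11 of 52 were called higher and 3 lower, against 17.6% and 12% of genes. They included Lrp1, a receptor that clears protease complexes, at 4.57, Pros1, the cofactor of protein C, at 3.55, the thrombospondin receptor Cd36 at 3.53 and the phospholipid-binding Anxa5 at 3.08 (limma, Benjamini-Hochberg adjusted p = 3.91e-05, 3.57e-05, 1.31e-05 and 6.08e-06). Against wild-type MDPs, macrophages had 10 of 52 called higher and 4 lower, against 10.9% and 11.5%. Lrp1 (4.44), Pros1 (3.16) and Cd36 (3.04) were higher there too, and Tfpi, the inhibitor of the tissue factor pathway, fell by 3.19 (limma, Benjamini-Hochberg adjusted p = 6.38e-05, 1.27e-04, 6.49e-05 and 3.16e-08).

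Granulocytes had 8 of 52 called higher and 5 lower than wild-type MDPs, against 21.3% and 22.6% of genes. Tfpi fell by 3.54, and so did Lman1, a carrier of factors V and VIII out of the endoplasmic reticulum, by 3.66, and Vkorc1, the vitamin K reductase needed to make factor X, by 2.96 (limma, Benjamini-Hochberg adjusted p = 3.05e-09, 8.07e-07 and 1.14e-06). The mean Tfpi level was 2.89 in granulocytes, under the lower quartile, and 3.24 in macrophages, near it. Anxa2 was higher in granulocytes by 2.60 (limma, Benjamini-Hochberg adjusted p = 1.11e-06). Lman1 was thus lower in the cells with the highest F5, at 5.76 ± 0.97 in granulocytes and 9.43 ± 0.09 in wild-type MDPs (SD, n = 3 each). The 4 genes of fibrin formation, those of the fibrinogen chains and of the B subunit of factor XIII, had 0 calls by limma in all 5 comparisons. Their group means were low throughout, at 2.40 to 2.58 for F13b, 2.73 to 3.11 for Fga, 2.73 to 3.07 for Fgg and 3.75 to 3.99 for Fgb. At levels under or not far above the lower quartile, the lack of calls carries little information.

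**Figure D3:**
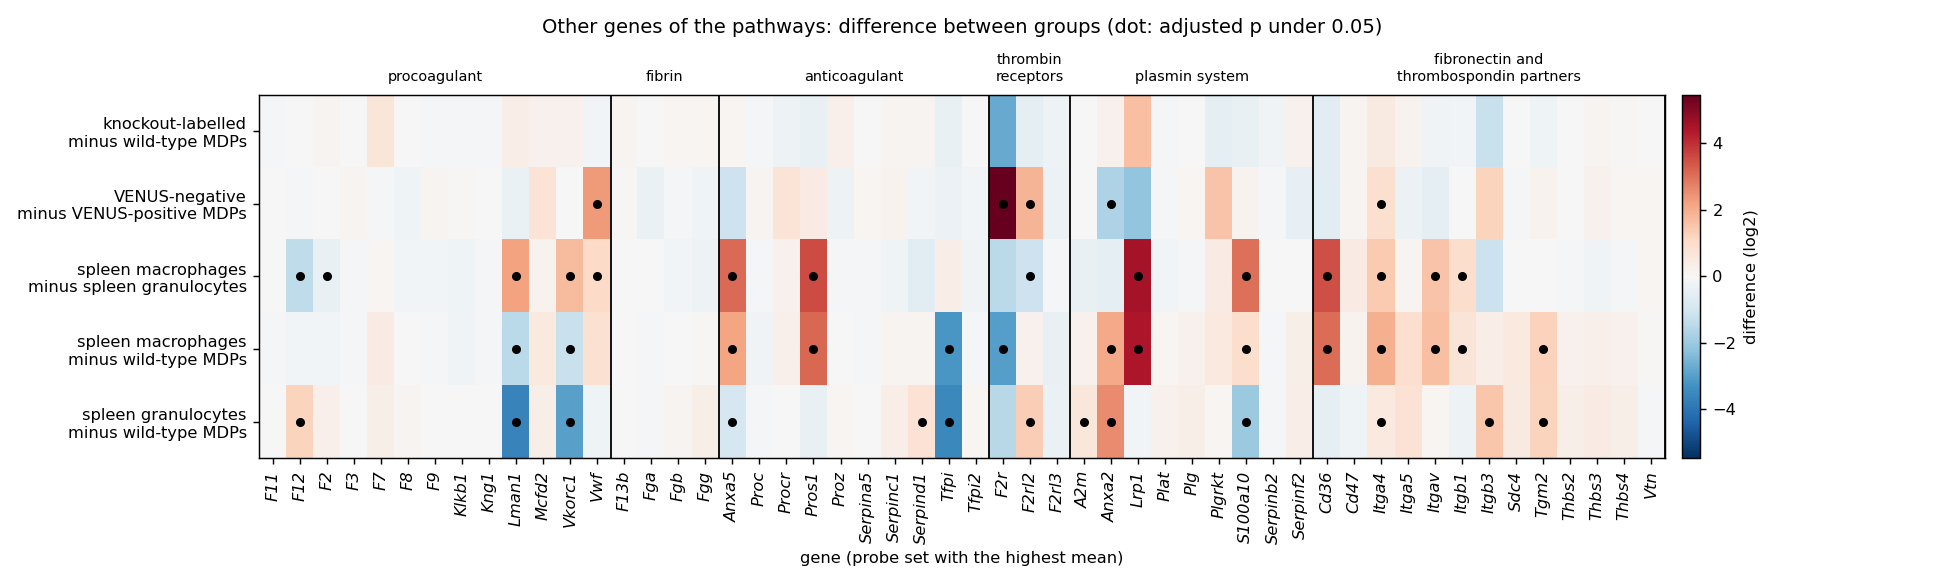
Difference between group means in log2 units, as colour, for the 52 measured pathway genes (horizontal axis, grouped by list) in the 5 comparisons (vertical axis), with a dot on each called gene. F2r at 5.47 stands out between the VENUS groups, Lrp1 at 4.57 between macrophages and granulocytes, and no gene has a dot in the knockout comparison.

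Genes with the most similar pattern were sought among 3465 genes whose group means spanned at least 2 log2 units, by Pearson's r over the 17 arrays, which share their groups. For F13a1 they were Il6st (0.971), Tifab (0.971) and Met (0.969). For Thbd they were Aif1 (0.963), Il10ra (0.961) and Olfm1 (0.959). For F10 they were Ms4a6d (0.952), Cyp39a1 (0.949) and Cyria (0.913). F5 was closest to Entpd1 (0.982), Slfn4 (0.981) and Mcemp1 (0.979), and Plaur to Prkcb (0.971), Wipf1 (0.970) and Msrb1 (0.969). Fn1 was closest to Ms4a8a (0.980), Clec4b1 (0.975) and Lpl (0.967). Plau had weaker matches, G6pd2 (0.832), Clec5a (0.773) and Morrbid (0.772). These names depend on the measure: by Spearman's rho the lists of 4 genes shared 0 of the 3 names, and without wild-type pool 3 that of Fn1 shared 0 while the other 6 shared all 3. Among the 7 genes themselves Fn1 followed F10 (r = 0.85) and Thbd (0.83), and F5 ran against F13a1 (-0.47).

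**Figure D4:**
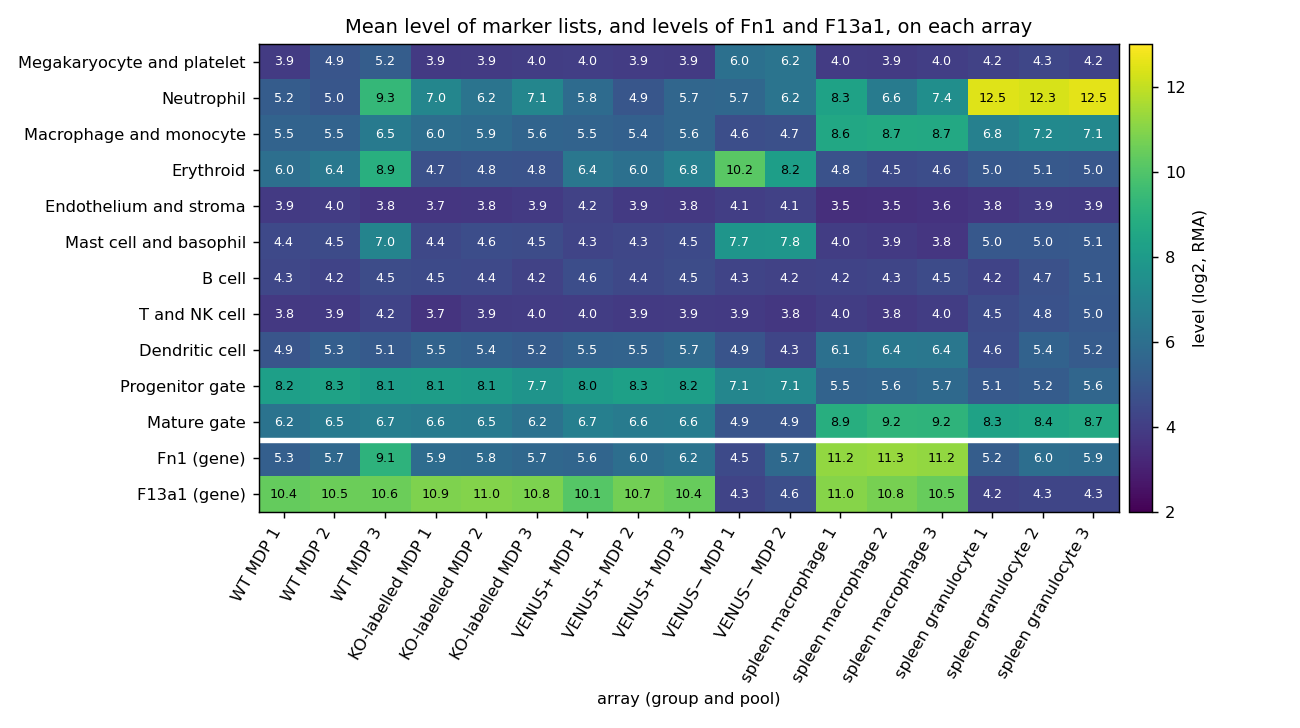
Mean log2 level, as colour and number, of each list of marker genes and of Fn1 and F13a1 (vertical axis) on each of the 17 arrays (horizontal axis, by group and pool). Wild-type MDP pool 3 stands above pools 1 and 2 for the neutrophil list (9.32) and the mast cell and basophil list (6.95), and the VENUS-negative pools are highest for the megakaryocyte and platelet list (6.04 to 6.24).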

How the data were processed

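Cells of 6 sorted groups were measured on 17 arrays. The authors deposited log2 values made with Affymetrix Expression Console by RMA, per the submitters' processing notes, with versions not given in the sources used here. RMA corrects background, quantile-normalizes arrays and summarises probes, so levels of different probe sets are not compared. Array medians ran from 4.33 to 4.48, and 0 columns were unmapped. Of the probe sets, 28898 have 1 symbol, 551 several and 15588 none. All 45037 were fitted with limma 3.58.1 in R 4.3.3 (lmFit, eBayes, two-sided, one mean per group), with Benjamini-Hochberg adjustment over all of them and calls at an adjusted p under 0.05. For pathway genes and the background beside them, the probe set with the highest mean stood for the gene and kept its p from that fit. SD is the spread between the pools of 1 group. SE is limma's and rests on a spread shared by all 6 groups, and p-values measure only that shared spread. A wide spread in 1 group, as for Fn1 in wild-type MDPs (SD 2.07), therefore enters the SE of every comparison. The number of arrays limits the precision. The fit was tried on values simulated with independent normal noise, equal in spread in every group. They had no outlying pool and no effect of pool number, so they do not test the fit under such features. The 8 genes and all lists were chosen with earlier results of these data known. Named were all probe sets of the 8 genes, up to 4 called pathway genes per comparison with the largest difference, and the 3 most similar genes of each. Alternatives were 1 probe set per gene, only the groups compared, a block for the pool number, an intensity trend, a filter on low values, median centring, array weights and leaving out each pool. Dendritic cell samples were not analysed here.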

Additional observations from a re-analysis of the deposited data

How the results depend on the processing

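Of 55 differences of the 11 probe sets, recomputed 684 times, 8 lost and 3 gained a call. The sign turned 26 times, in 15 differences, 0 of them called before or after. With 1 pool left out these ran, in the knockout comparison, from -0.28 to 0.29 and -0.91 to 0.17 (F5 1418907_PM_at and 1449269_PM_at), -0.40 to 0.47 and -0.53 to 0.22 (Plau 1422139_PM_at and 1422138_PM_at), -0.039 to 1.24 (F10 1418993_PM_s_at) and -1.62 to 0.26 (Fn1). Between granulocytes and wild-type MDPs they ran from -0.21 to 0.24 (Thbd), -0.59 to 0.91 and -0.10 to 1.27 (Plau, same order), -0.89 to 0.17 and -1.04 to 0.23 (F10 1449305_PM_at and 1418993_PM_s_at) and -1.72 to 0.16 (Fn1). Plau 1422139_PM_at ran from -0.94 to 0.56 between macrophages and granulocytes and from -0.53 to 0.24 between macrophages and wild-type MDPs, and F10 1418993_PM_s_at from -1.80 to 0.21 between the VENUS groups. Array weights turned F5 1418907_PM_at to 0.028 and Plau 1422139_PM_at to -0.029 in the knockout comparison, and median centring turned Thbd to -0.003 between granulocytes and wild-type MDPs. Calls over all probe sets (259, 1998, 11214, 8511 and 17289 for the knockout, VENUS, macrophage-granulocyte, macrophage-MDP and granulocyte-MDP comparisons) became 155, 1003, 5337, 4038 and 7720 with 1 probe set per gene, where fewer features were tested. The 8 and 5 calls of the 11 probe sets in the macrophage-granulocyte and granulocyte-MDP comparisons became 5 and 3 there, with 1 probe set for each of the 7 genes. A fit of only the groups compared called 46 probe sets in the knockout and 536 in the VENUS comparison, and 2 VENUS pathway genes in place of 5. Array weights gave 395 probe sets and 1 pathway gene in the knockout comparison, and the filter on low values 1. The cause was not tested.

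With the pool number as a block and only the groups compared, 2 probe sets and 0 of the 11 were called in the knockout comparison (Thbd -1.58, limma adjusted p = 0.175), and 0 probe sets and 0 pathway genes between the VENUS groups. F10 probe set 1418992_PM_at lost its granulocyte-MDP call (adjusted p = 0.102). Deviations of pools with the same number correlated at -0.075 to 0.115, and in no comparison did every pair exceed 0.1. The labels used here do not say whether pools with the same number were handled together. Correlations over all probe sets cannot decide this, as shared handling could affect only some genes.

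Leaving out 1 pool gave 1 to 2 calls of the 11 in the knockout comparison, and 6 to 10 without overlap between the VENUS groups. For the VENUS counts no share over all probe sets was taken with a pool left out, so nothing is read from them. The lead of granulocytes over the next group for Plau (0.31) ran from -0.694 without granulocyte pool 1, and -0.059 without knockout-labelled pool 2, to 0.811. With 2 or 3 pools per group, levels near the lower quartile, as for F5 in MDPs, carry little information.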
